A study of Mus musculus with 6 samples.

Results

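The nuclear-encoded respiratory chain genes of mouse regulatory T cells (Tregs) made in culture were compared between cells given DEL-1-Fc and cells given Fc. Members were the protein-coding genes in the count files whose mouse symbol (GENCODE M21 annotation, GRCm38 build) begins with Ndufa, Ndufb, Ndufc, Ndufs, Ndufv, Uqcr, Atp5 or Cox4 to Cox8, or is Sdha, Sdhb, Sdhc or Sdhd. The rule found 93 members among 39179 gene identifiers: 46 of complex I, 4 of complex II, 8 of complex III, 18 of complex IV and 17 of complex V. The Ndufa stem also takes 8 complex I assembly factors (Ndufaf), and 11 further genes with a matching symbol were left out because the annotation does not call them protein coding.

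Both groups were naive CD4+ T cells taken from wild-type C57BL/6 spleens (mice of 6 weeks), cultured for 3 days on plates coated with anti-CD3 (2 µg/ml, although the first letter of that unit is unreadable in the labels) with anti-CD28 (1 µg/ml), TGFβ1 (5 ng/ml) and IL-2 (40 ng/ml). The DEL-1-Fc group (3 libraries) received DEL-1, a secreted protein that binds integrins, fused to an antibody Fc part. The Fc group (3 libraries) received the Fc part alone. The title of the series names an axis of DEL-1 and β3 integrin, Runx-1 and Foxp3. RNA was sequenced after polyA selection. The labels do not say whether the replicates of a group came from separate mice or cultures, and the p-values therefore reflect only how far these libraries differ, which may be technical variation.

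The respiratory chain sits in the inner mitochondrial membrane. Complex I (NADH dehydrogenase) and complex II (succinate dehydrogenase) pass electrons to ubiquinone, complex III passes them on to cytochrome c, and complex IV hands them to oxygen. Complexes I, III and IV pump protons, and complex V (ATP synthase) uses the proton gradient to make ATP. The mitochondrial genome encodes core subunits of complexes I, III, IV and V, while every complex II subunit and all other subunits come from nuclear genes. In textbook accounts, Tregs rely on oxidative metabolism more than other activated CD4+ T cells do.

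The libraries held 33364166 to 58075983 counts in the DEL-1-Fc group and 55318383 to 61967687 counts in the Fc group, and the shallowest was DEL-1-Fc replicate 1. That library also stood apart in a principal component analysis of log CPM (CPM, counts scaled to library size), whose first axis carried 44.0% of the variance. Its score was -47.7, beside -14.3 and -12.8 for the other DEL-1-Fc libraries and 27.5, 24.6 and 22.7 for the Fc libraries. Values without it are therefore given beside the results that it moves most. Markers of T cells (Cd3e, Cd3d, Cd4, Cd28, Trac, Lck) summed to 2210 to 2461 CPM in DEL-1-Fc libraries and 2111 to 2178 CPM in Fc libraries. Foxp3, the lineage factor of Tregs, had 521, 584 and 465 CPM in DEL-1-Fc libraries and 316, 414 and 349 CPM in Fc libraries (log2 fold change 0.54, SE 0.116, edgeR adjusted p = 0.0165). The Treg marker Ctla4 went the other way, with 391, 422 and 461 CPM in DEL-1-Fc libraries and 516, 517 and 540 CPM in Fc libraries. Il2ra had 2273, 2770 and 2615 CPM in DEL-1-Fc libraries and 2348, 2613 and 2430 CPM in Fc libraries. Ikzf2 had 21.5, 26.1 and 27.2 CPM in DEL-1-Fc libraries and 25.3, 28.1 and 27.1 CPM in Fc libraries. The groups overlapped for both Il2ra and Ikzf2. The marker lists of CD8 T cells, B cells, myeloid cells, dendritic cells, NK cells, neutrophils, erythroid cells and platelets each summed to at most 12.8 CPM in any DEL-1-Fc library and 10.4 CPM in any Fc library. CD8 T cell markers summed to 11.9 to 12.8 CPM in DEL-1-Fc libraries and 10.1 to 10.4 CPM in Fc libraries. Dendritic cell markers summed to 6.46 to 7.04 CPM in DEL-1-Fc libraries and 8.87 to 9.02 CPM in Fc libraries. Clec9a, Ncr1, S100a8, Hbb-bs, Pf4 and Gp9 were at 0 in all 6 libraries, and the part of other cell types in the results was not tested. All 37 genes of the mitochondrial genome, its 13 respiratory chain subunits among them, are listed at 0 counts in every library, so only the nuclear part of the chain could be measured.

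Promoters of many respiratory chain genes are known to hold sites for the transcription factors NRF1, GABPA and YY1, and the members' promoters were searched for them. RefSeq promoter windows, from 250 bases before to 50 bases after a start site, were found for 76 of the 93 members (81.7%), with 81 windows in all. Searched on both strands were CGCATGCG, the core bound by NRF1, CCGGAAG, the core bound by ETS factors such as GABPA, and AAGATGGCG, a site bound by YY1. The first reads the same on either strand, and the end of the ETS core can form the start of the YY1 site. The NRF1 core was in 13.6% of member windows, against 3.72% of the windows of all genes tested and 1.87% of all windows in the table. The ETS core was in 22.2% of member windows, against 17.5% and 8.86% of those same 2 sets, and the YY1 site in 9.88%, against 2.92% and 1.40%. At least 1 of the 3 motifs was in 37.0% of member windows, against 22.5% and 11.5%. These are matches of letters and no measure of binding.

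Shown here are the windows of Ndufb2, Cox5b and Cox7a2l, the members that passed the test described further on, and that of Atp5j, the one member window that holds all 3 motifs. Each runs from 250 bases before to 30 bases after the RefSeq start on the strand of the gene (GRCm38.p6), and capitals mark motif matches. Ndufb2 lies at chr6:39592315-39592594 (plus strand), Cox5b at chr1:36691237-36691516 (plus strand), Cox7a2l at chr17:83514304-83514583 (minus strand) and Atp5j at chr16:84834947-84835226 (minus strand).
Ndufb2: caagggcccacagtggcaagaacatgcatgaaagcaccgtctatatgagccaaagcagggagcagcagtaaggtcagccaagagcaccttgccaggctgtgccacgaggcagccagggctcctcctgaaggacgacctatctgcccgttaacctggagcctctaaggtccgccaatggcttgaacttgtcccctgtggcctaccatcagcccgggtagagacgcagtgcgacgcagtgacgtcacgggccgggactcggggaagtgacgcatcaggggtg
Cox5b: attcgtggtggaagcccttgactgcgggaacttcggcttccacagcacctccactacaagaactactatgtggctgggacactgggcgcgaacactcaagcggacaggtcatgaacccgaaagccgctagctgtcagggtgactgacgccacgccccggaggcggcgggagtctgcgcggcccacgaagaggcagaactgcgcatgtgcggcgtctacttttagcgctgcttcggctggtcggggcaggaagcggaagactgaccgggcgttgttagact
Cox7a2l: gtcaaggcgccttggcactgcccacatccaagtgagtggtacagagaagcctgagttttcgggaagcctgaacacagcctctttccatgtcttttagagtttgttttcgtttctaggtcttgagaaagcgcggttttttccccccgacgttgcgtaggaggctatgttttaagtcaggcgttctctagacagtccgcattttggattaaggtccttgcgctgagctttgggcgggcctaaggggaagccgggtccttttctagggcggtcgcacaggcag
Atp5j: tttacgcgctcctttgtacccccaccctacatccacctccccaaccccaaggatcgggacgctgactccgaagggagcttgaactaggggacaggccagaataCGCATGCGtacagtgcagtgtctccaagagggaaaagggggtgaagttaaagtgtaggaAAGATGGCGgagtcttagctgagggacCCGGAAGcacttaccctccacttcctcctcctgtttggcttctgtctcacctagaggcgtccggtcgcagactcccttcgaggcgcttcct
In the Atp5j window shown, the NRF1 core starts at -147, the YY1 site at -88 and the ETS core at -61 from the start. The 3 other windows shown hold none of these motifs. A further RefSeq window of Atp5j (chr16:84835596-84835875, minus strand) holds none of them either. Atp5j encodes coupling factor 6 of the ATP synthase stalk, and 12.7% of its exon bases overlap Gabpa on the opposite strand.

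Of the 93 members, 88 had enough counts to be tested, and their levels spanned more than 3 orders of magnitude. Levels per length (CPM per kilobase of principal transcript, RPKM) were highest for the catalytic F1 subunits of complex V. Atp5b, the catalytic β subunit, averaged 864 ± 127 RPKM in DEL-1-Fc libraries and 848 ± 21.4 RPKM in Fc libraries (SD, n = 3 each). Atp5a1, the α subunit, averaged 475 ± 42.5 RPKM in DEL-1-Fc libraries and 447 ± 20.6 RPKM in Fc libraries. They were followed by 4 genes of similar level. Cox6a1 averaged 409 ± 81.8 RPKM in DEL-1-Fc libraries and 377 ± 4.41 RPKM in Fc libraries, Atp5g3 368 ± 37.6 RPKM in DEL-1-Fc libraries and 365 ± 13.2 RPKM in Fc libraries, and Cox8a 373 ± 31.4 RPKM in DEL-1-Fc libraries and 351 ± 5.85 RPKM in Fc libraries. Atp5g2, whose level depends on the transcript taken, averaged 355 ± 47.6 RPKM in DEL-1-Fc libraries and 317 ± 11.01 RPKM in Fc libraries. These 4 differed from each other by less than 1 SD of Cox6a1 in the DEL-1-Fc libraries, and Atp5g3 from Cox6a1 by less than its own SD in the Fc libraries. In DEL-1-Fc libraries the median tested member had 65.0 RPKM in complex I, 86.4 RPKM in complex II, 130 RPKM in complex III, 156 RPKM in complex IV and 159 RPKM in complex V. In Fc libraries the median was 58.0 RPKM in complex I, 82.3 RPKM in complex II, 124 RPKM in complex III, 142 RPKM in complex IV and 138 RPKM in complex V. The Ndufaf assembly factors help build complex I, are not part of the finished enzyme, and are counted in the complex I median. They were lower, at 5.94 to 25.0 RPKM in DEL-1-Fc libraries and 5.42 to 25.4 RPKM in Fc libraries. For 8 members the principal transcripts differ in length by more than 1.5-fold, which leaves the level uncertain: Ndufb2 had 4.33 to 41.6 RPKM in DEL-1-Fc libraries and 3.35 to 32.1 RPKM in Fc libraries from its longest to its shortest principal transcript.

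**Figure D1:**
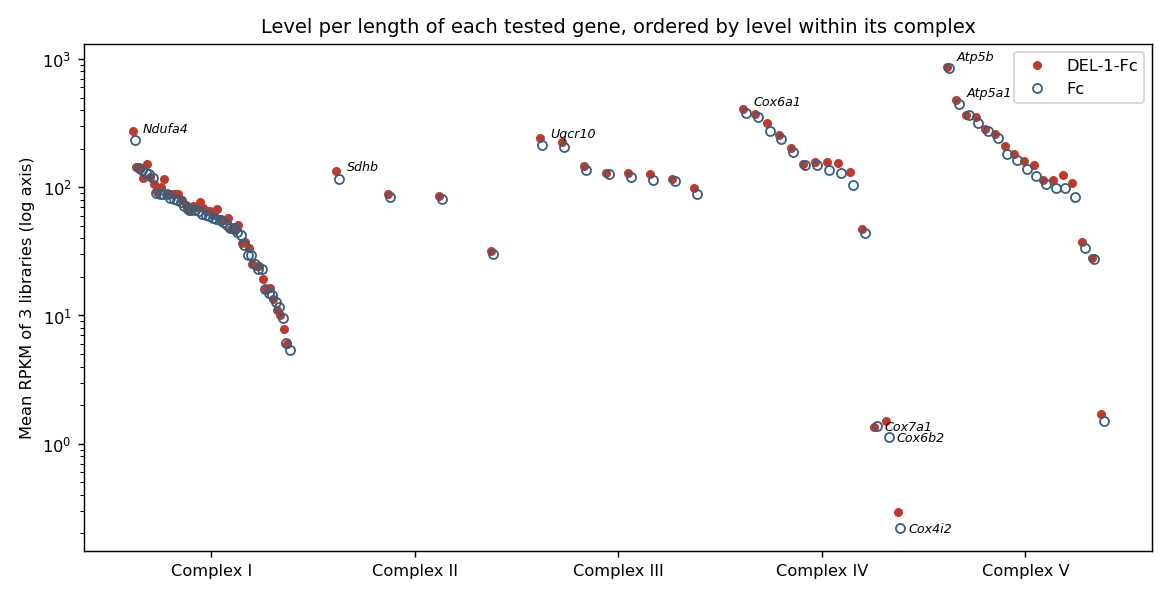
Mean level per length of each of the 88 tested members (log axis, RPKM by the median length of its principal transcripts), ordered by its Fc level within each complex; filled points are the mean of 3 DEL-1-Fc libraries and open points that of 3 Fc libraries. Atp5b and Atp5a1 are the highest, the isoforms Cox7a1, Cox6b2 and Cox4i2 are the lowest of complex IV, and the 2 groups lie close together for nearly every gene.

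Where a subunit has a widely expressed and a tissue-restricted isoform, these cells carried the widely expressed one. Cox4i1 had 292, 195 and 226 CPM in DEL-1-Fc libraries and 200, 196 and 219 CPM in Fc libraries. Its partner Cox4i2, known from lung, had 0.213, 0.265 and 0.169 CPM in DEL-1-Fc libraries and 0.159, 0.179 and 0.146 CPM in Fc libraries. Per length, Cox4i1 averaged 314 RPKM in DEL-1-Fc libraries and 272 RPKM in Fc libraries, and Cox4i2 averaged 0.296 RPKM in DEL-1-Fc libraries and 0.221 RPKM in Fc libraries. Cox6b1 had 170, 146 and 156 CPM in DEL-1-Fc libraries and 149, 140 and 150 CPM in Fc libraries. Cox6b2, known from testis, had 1.01, 0.796 and 0.708 CPM in DEL-1-Fc libraries and 0.581, 0.588 and 0.710 CPM in Fc libraries. Cox7a2 had 106, 92.9 and 109 CPM in DEL-1-Fc libraries and 96.4, 93.4 and 104 CPM in Fc libraries. Its heart and muscle partner Cox7a1 had 0.427, 0.584 and 0.590 CPM in DEL-1-Fc libraries and 0.335, 0.588 and 0.710 CPM in Fc libraries. Per length, Cox6b2 averaged 1.51 RPKM in DEL-1-Fc libraries and 1.13 RPKM in Fc libraries, beside 254 and 237 RPKM for Cox6b1 in DEL-1-Fc and Fc libraries. Cox7a1 averaged 1.36 RPKM in DEL-1-Fc libraries and 1.39 RPKM in Fc libraries, beside 156 and 149 RPKM for Cox7a2 in DEL-1-Fc and Fc libraries. In each of these genes the 2 groups overlapped, and none was called.

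The remaining isoforms were at the edge of detection. Cox6a1 had 288, 206 and 208 CPM in DEL-1-Fc libraries and 218, 214 and 214 CPM in Fc libraries, while its heart and muscle partner Cox6a2 had 0 counts in each DEL-1-Fc library and 2, 1 and 2 counts in the Fc libraries. Cox8a had 225, 197 and 193 CPM in DEL-1-Fc libraries and 193, 190 and 196 CPM in Fc libraries, and Cox8b had 0, 0 and 1 count in DEL-1-Fc libraries and 0 counts in each Fc library. Cox7b2 and Cox8c had no count in any library. A count of 0 still allows up to 3 counts, which is 0.0506 to 0.0914 CPM across the DEL-1-Fc libraries and 0.0490 to 0.0546 CPM across the Fc libraries, counting error alone considered. Ndufa4 was first ascribed to complex I and is now known as a complex IV subunit. By its symbol it is counted in complex I here. It had 164, 129 and 143 CPM in DEL-1-Fc libraries and 120, 118 and 131 CPM in Fc libraries. Its hypoxia-induced relative Ndufa4l2 had 0, 1 and 0 counts in DEL-1-Fc libraries and 3, 3 and 1 counts in Fc libraries. These 5 rare members (Ndufa4l2, Cox6a2, Cox7b2, Cox8b, Cox8c) did not pass the filter on low counts and have no test. Complex V has 3 genes for 1 c-ring subunit. Atp5g3 had 293, 240 and 260 CPM in DEL-1-Fc libraries and 255, 259 and 273 CPM in Fc libraries. Atp5g2 had 240, 189 and 195 CPM in DEL-1-Fc libraries and 180, 186 and 192 CPM in Fc libraries. Atp5g1 had 75.1, 74.0 and 76.9 CPM in DEL-1-Fc libraries and 77.5, 69.8 and 74.9 CPM in Fc libraries. The groups overlapped in each of the 3. Per length, Atp5g1 was the lowest of the 3 whichever transcript is taken, at 16.0 to 126 RPKM in DEL-1-Fc libraries and 15.7 to 124 RPKM in Fc libraries from its longest to its shortest principal transcript. Atp5g2 spans 284 to 471 RPKM in DEL-1-Fc libraries and 254 to 421 RPKM in Fc libraries in the same way, so it cannot be ordered against Atp5g3.

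With DEL-1-Fc, 3 members of the respiratory chain were called higher and none lower, out of 88 tested (edgeR quasi-likelihood test, Benjamini-Hochberg adjusted p under 0.05 over 14928 genes). The 3 were Ndufb2 of the complex I membrane arm, the complex IV subunit Cox5b, and Cox7a2l, described as a factor for supercomplexes of complexes III and IV. Whether Cox7a2l acts in that way in these C57BL/6 cells was not tested. Members were called higher in 3.41% of cases, beside 6.4% of all genes tested, and lower in none, beside 6.22%. Unadjusted p under 0.05 was reached by 16 members, all higher, and by 0 lower. Over all 14928 genes tested, it was reached by 2058 higher and 1977 lower. DESeq2 called 7 higher and limma-voom 1 higher, and each called 0 lower. Of all 14928 genes, DESeq2 called 2429 and limma-voom 1774 in either direction. In 17 members (19.3%) all 3 DEL-1-Fc libraries lay above all 3 Fc libraries, beside 17.3% of all genes, and in 1 member, Ndufa7, all lay below, beside 17.5%. In the other 70 the groups overlapped. The count of members called higher was 6, 11 and 0 without DEL-1-Fc replicate 1, 2 and 3, and 0 without any one of the Fc replicates. Calls over all genes, in either direction, were 3003, 1738 and 1295 without DEL-1-Fc replicate 1, 2 and 3. They were 901, 970 and 963 without Fc replicate 1, 2 and 3.

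Most fold changes were small and above 0. The log2 fold change, DEL-1-Fc over Fc, was above 0 in 82 of 88 members (93.2%), beside 51.4% of all genes tested. Its median was 0.13 over the members, a fold of 1.09, beside 0.01 over all genes, and its median without 1 library ran from 0.06 (without DEL-1-Fc replicate 1) to 0.19 (without DEL-1-Fc replicate 2). Single members ran from -0.12 (Ndufa7) to 0.41 (Cox4i2). Cox4i2 had only 7, 15 and 10 counts in DEL-1-Fc libraries and 9, 11 and 8 counts in Fc libraries. Its 95% confidence interval ran from -0.42 to 1.24. The medians were 0.13 for complex I, 0.08 for complex II, 0.12 for complex III, 0.11 for complex IV and 0.16 for complex V. The 95% confidence interval lay inside a log2 of ±0.5 for 69 members, and lay wholly above 0 for 16 and wholly below 0 for none. These 16 are the same members that reached an unadjusted p under 0.05. Summed over all 93 members, tested or not, the level was 12402, 9935 and 10766 CPM in DEL-1-Fc libraries and 10132, 9956 and 10535 CPM in Fc libraries. The highest library was thus a DEL-1-Fc one and so was the lowest. In bulk RNA, less of a transcript per cell and fewer cells that carry it cannot be told apart.

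**Figure D2:**
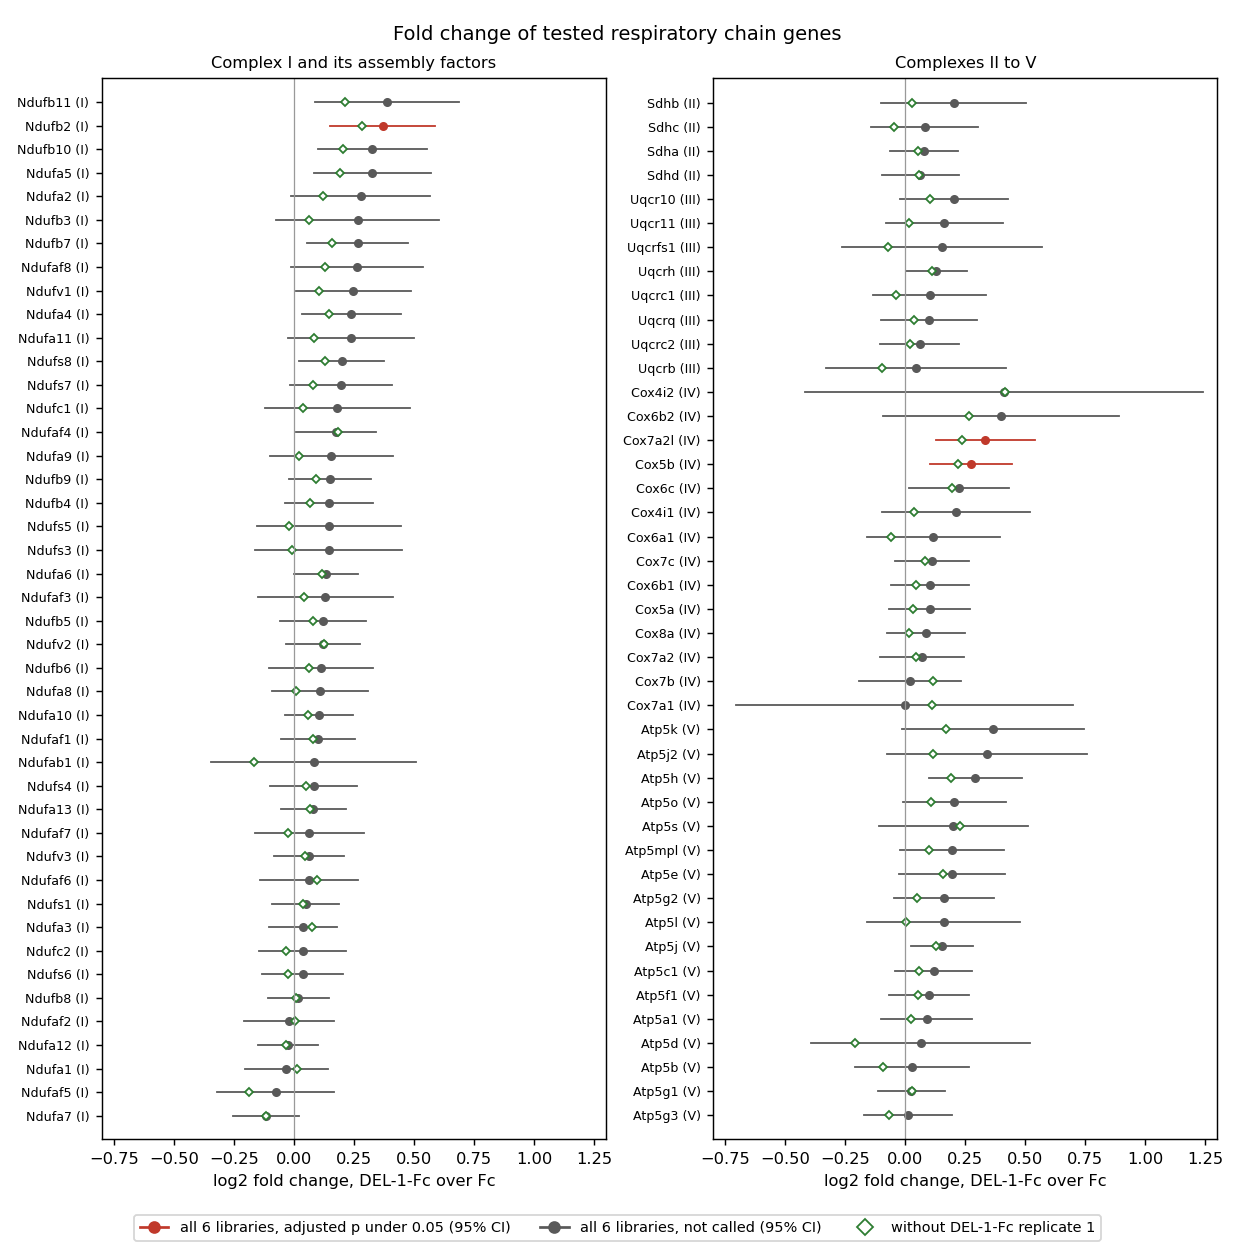
Log2 fold change of the tested members, with 1 of complex I not shown, DEL-1-Fc over Fc, with its 95% confidence interval (circles, red where the adjusted p was under 0.05), and the value without DEL-1-Fc replicate 1 (open diamonds), for complex I on the left and complexes II to V on the right. Nearly all circles lie right of 0, 3 are red (Ndufb2, Cox5b, Cox7a2l), and most diamonds lie nearer to 0 than their circles.

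Much of the shift came with DEL-1-Fc replicate 1. That library held the highest level of all 6 in 69 of 88 members (78.4%), beside 30.2% of all genes. Relative to the mean log2 level of the Fc libraries, the median member was at 0.27, 0.00 and 0.11 in DEL-1-Fc replicates 1, 2 and 3, and at -0.02, -0.03 and 0.05 in Fc replicates 1, 2 and 3. Without DEL-1-Fc replicate 1 the median log2 fold change of the members was 0.06, beside 0.01 over all genes, and 71 of 88 were above 0. It was 0.06 in complex I, 0.04 in complex II, 0.02 in complex III, 0.10 in complex IV and 0.06 in complex V. In that comparison 6 members were called higher and 1 lower, beside 9.76% and 9.98% of the 15208 genes then tested. All 3 members called with 6 libraries were among the 6, joined by Ndufb10, Ndufb11 and Atp5h, and the 1 called lower was Atp5d.

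The same library was high for short transcripts in general. The tested genes that have an annotated principal transcript were split into terciles by its length (4120, 4117 and 4118 genes). The median relative level of that library was 0.14 in the tercile with the shortest transcripts (up to 2129 bases). It was 0.01 in the middle tercile and -0.15 in the longest. In the other libraries these medians lay between -0.03 and 0.04. Of the 88 tested members, 80 belong to the shortest tercile, 8 to the middle and 0 to the longest. In the same library the median was 0.09 for the tercile with the highest GC content and -0.09 for the tercile with the lowest. These medians do not separate the part of length and GC content in the shift of the members from that of the treatment. Each library's trend on GC and length was then removed, with length taken over all annotated exons of a gene and not over its principal transcript. After that, the members' median was 0.09, beside 0.00 over all genes. Of the members, 5 were called higher (Ndufb2, Ndufb10, Cox5b, Cox7a2l, Atp5h), and over all genes 2627 of 14757 were called in either direction. A trend on principal transcript length was not removed, so length and treatment were not fully separated.

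**Figure D3:**
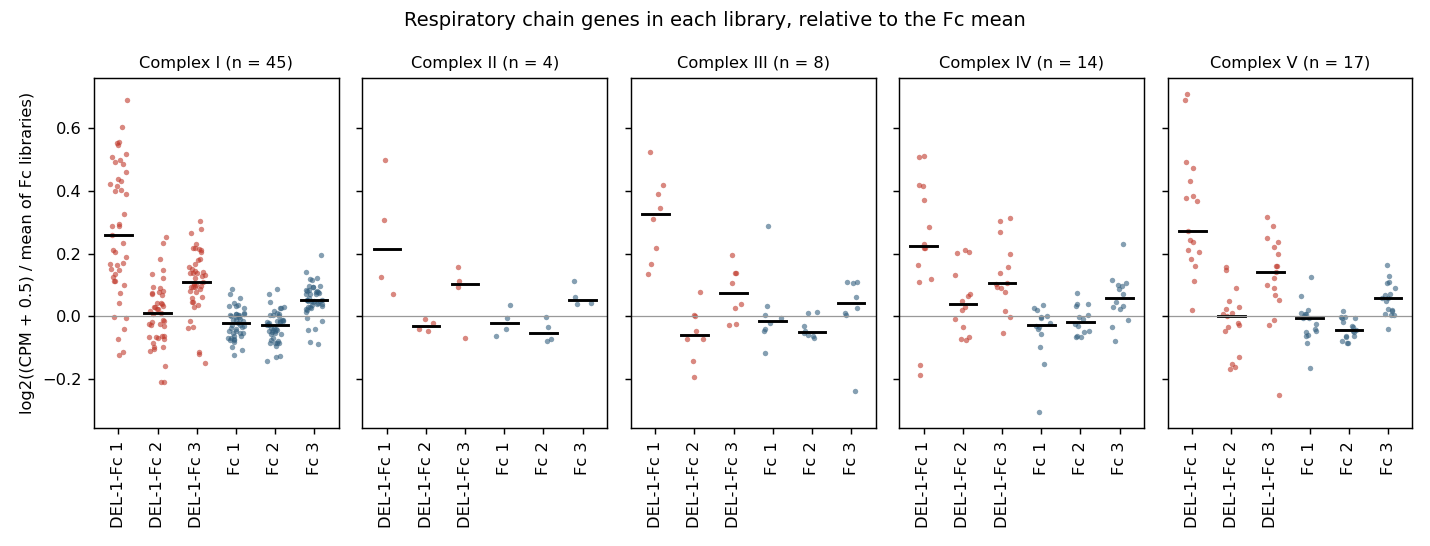
Level of each tested member in each library relative to the Fc mean (log2 of CPM plus 0.5), split by complex; points are genes and bars are medians, with the 3 DEL-1-Fc libraries left of the 3 Fc libraries. DEL-1-Fc replicate 1 has the highest median in every complex, with values from 0.22 to 0.33, and DEL-1-Fc replicate 2 lies among the Fc libraries, or just below them in complex III.

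Complex I held 45 tested members, of which 1 was called higher and 0 lower (2.22% and 0%, beside 6.4% and 6.22% of all genes tested). The 45 include Ndufa4, counted by its symbol, and the 8 Ndufaf assembly factors. Ndufb2, an accessory subunit of the membrane arm (chromosome 6, 39592574 to 39603382, plus strand), had 21.1, 17.5 and 18.1 CPM in DEL-1-Fc libraries and 13.5, 14.9 and 15.5 CPM in Fc libraries. Every DEL-1-Fc library lay above every Fc library. The log2 fold change was 0.37 (SE 0.0966, adjusted p = 0.0379), and 0.29 when DEL-1-Fc replicate 1 was left out (adjusted p = 0.0261). The call was lost when DEL-1-Fc replicate 3 was left out (adjusted p = 0.0780), and likewise for Fc replicate 1, 2 or 3 (0.162, 0.126 and 0.0887). It held in 12 of 19 alternatives. A share of 7.9% of its exon bases overlap other genes, among them Braf on the opposite strand.

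Ndufb10, another accessory subunit of that arm, had 65.9, 51.1 and 52.4 CPM in DEL-1-Fc libraries and 42.4, 45.8 and 46.6 CPM in Fc libraries. The groups did not overlap, with a log2 fold change of 0.33 (SE 0.100, adjusted p = 0.0673). It passed the threshold in 7 of 19 alternatives, among them the one without DEL-1-Fc replicate 1 (0.20, adjusted p = 0.0281). Ndufb11, also of the membrane arm, showed the same pattern, with 129, 88.1 and 96.6 CPM in DEL-1-Fc libraries and 79.6, 84.5 and 74.8 CPM in Fc libraries (0.39, SE 0.131, adjusted p = 0.0948). Without DEL-1-Fc replicate 1 it was called (0.21, adjusted p = 0.0355), and 29.0% of its 31-base words also occur in other genes. Ndufb11 and Atp5d were singled out after their values were seen.

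The catalytic subunits of complex I described here were not called. Ndufv1, which binds NADH and flavin, had 114, 84.6 and 88.1 CPM in DEL-1-Fc libraries and 79.6, 78.8 and 82.6 CPM in Fc libraries (log2 fold change 0.25, SE 0.106, adjusted p = 0.173). Ndufs1, which carries iron-sulfur clusters, had 97.9, 91.0 and 99.6 CPM in DEL-1-Fc libraries and 93.4, 89.5 and 95.9 CPM in Fc libraries (0.05, SE 0.0621, adjusted p = 0.657). The values of Ndufs1 overlapped, while all 3 of Ndufv1 in the DEL-1-Fc group were the higher ones. Ndufs7, which holds the last iron-sulfur cluster before ubiquinone, had 88.5, 67.7 and 73.7 CPM in DEL-1-Fc libraries and 66.7, 66.0 and 67.9 CPM in Fc libraries (0.20, SE 0.0942, adjusted p = 0.223). For Ndufs7, DEL-1-Fc replicate 1 was far above the 5 other libraries. Without that library the log2 fold change was 0.08 for Ndufs7, 0.11 for Ndufv1 and 0.04 for Ndufs1. The 19 membrane arm members had a median log2 fold change of 0.15 and the 16 peripheral arm members 0.14, and without DEL-1-Fc replicate 1 these were 0.07 and 0.05. The 8 Ndufaf assembly factors had a median of 0.08, with 0 called, beside 6.4% higher and 6.22% lower of all genes tested. Ndufa7 of the peripheral arm was the only tested member with every DEL-1-Fc library below every Fc library, at 62.6, 62.8 and 62.6 CPM in DEL-1-Fc libraries, against 65.0, 67.2 and 71.5 CPM in Fc libraries (-0.12, SE 0.0607, adjusted p = 0.263).

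None of the 4 complex II genes and none of the 8 complex III genes was called in either direction, beside 6.4% higher and 6.22% lower of all genes tested. Sdhb, the iron-sulfur subunit of succinate dehydrogenase, had 188, 129 and 142 CPM in DEL-1-Fc libraries and 129, 126 and 144 CPM in Fc libraries (log2 fold change 0.20, SE 0.132, adjusted p = 0.369). Sdha, the flavoprotein that oxidises succinate, had 263, 240 and 261 CPM in DEL-1-Fc libraries and 240, 236 and 248 CPM in Fc libraries (0.08, SE 0.0631, adjusted p = 0.469). The groups overlapped in all 4 genes of the complex. In complex III, the hinge protein Uqcrh had 127, 120 and 125 CPM in DEL-1-Fc libraries and 112, 115 and 114 CPM in Fc libraries, the only member of the complex whose groups did not overlap (0.13, SE 0.0555, adjusted p = 0.175). The small subunit Uqcr10 had 120, 91.6 and 105 CPM in DEL-1-Fc libraries and 89.0, 87.4 and 98.8 CPM in Fc libraries (0.20, SE 0.0992, adjusted p = 0.231). The Rieske iron-sulfur protein Uqcrfs1 had 175, 106 and 125 CPM in DEL-1-Fc libraries and 118, 116 and 131 CPM in Fc libraries (0.15, SE 0.175, adjusted p = 0.623). Both the highest and the lowest library for Uqcrfs1 were DEL-1-Fc ones. The core protein Uqcrc1 had 286, 218 and 220 CPM in DEL-1-Fc libraries and 230, 218 and 227 CPM in Fc libraries (0.10, SE 0.103, adjusted p = 0.572). Without DEL-1-Fc replicate 1, the log2 fold change was 0.03 for Sdhb, 0.05 for Sdha, 0.11 for Uqcrh, 0.10 for Uqcr10, -0.07 for Uqcrfs1 and -0.04 for Uqcrc1.

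Complex IV held 2 of the 3 called members among its 14 tested. That is 14.3% higher and 0% lower, beside 6.4% and 6.22% of all genes tested, and it rests on 2 genes near the threshold. Cox5b, a nuclear subunit on the matrix side of the complex (chromosome 1, 36691449 to 36693681, plus strand), had 144, 122 and 138 CPM in DEL-1-Fc libraries and 114, 114 and 105 CPM in Fc libraries (log2 fold change 0.27, SE 0.0754, adjusted p = 0.0474). Cox7a2l (chromosome 17, 83501918 to 83517330, minus strand) had 160, 129 and 135 CPM in DEL-1-Fc libraries and 105, 112 and 120 CPM in Fc libraries (0.33, SE 0.0904, adjusted p = 0.0434). For both, every DEL-1-Fc library lay above every Fc library. Without DEL-1-Fc replicate 1 the log2 fold change was 0.22 for Cox5b (adjusted p = 0.0313) and 0.24 for Cox7a2l (adjusted p = 0.0194). Both calls were lost when DEL-1-Fc replicate 3 or any Fc replicate was left out, with adjusted p of 0.129 to 0.189 for Cox5b and 0.0753 to 0.193 for Cox7a2l. With all libraries kept, limma-voom (0.0610 and 0.0582) and no robust dispersion (0.0551 and 0.0559) also ended the calls of Cox5b and Cox7a2l, and RLE factors (0.0520) and thinning to the smallest library (0.0528) that of Cox5b. Cox5b passed in 8 and Cox7a2l in 11 of the 18 alternatives that gave them a value. Of the 31-base words of Cox5b 32.6% also occur in other genes, and of Cox7a2l 21.1%, and how reads shared with such copies were counted is not given in the sources used here, so both levels are uncertain. Cox5a, another subunit on the matrix side, had 143, 119 and 130 CPM in DEL-1-Fc libraries and 119, 122 and 125 CPM in Fc libraries (0.10, SE 0.0743, adjusted p = 0.422). Leaving out DEL-1-Fc replicate 1 gave Cox5a a log2 fold change of 0.03. The 10 widely expressed subunits had a median of 0.11. Of these, 1 was called higher and 0 lower (10% and 0%, beside 6.4% and 6.22% of all genes tested). Cox4i1, the largest nuclear subunit of the complex, had a log2 fold change of 0.21 (SE 0.134, adjusted p = 0.359), which was 0.04 when DEL-1-Fc replicate 1 was left out.

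**Figure D4:**
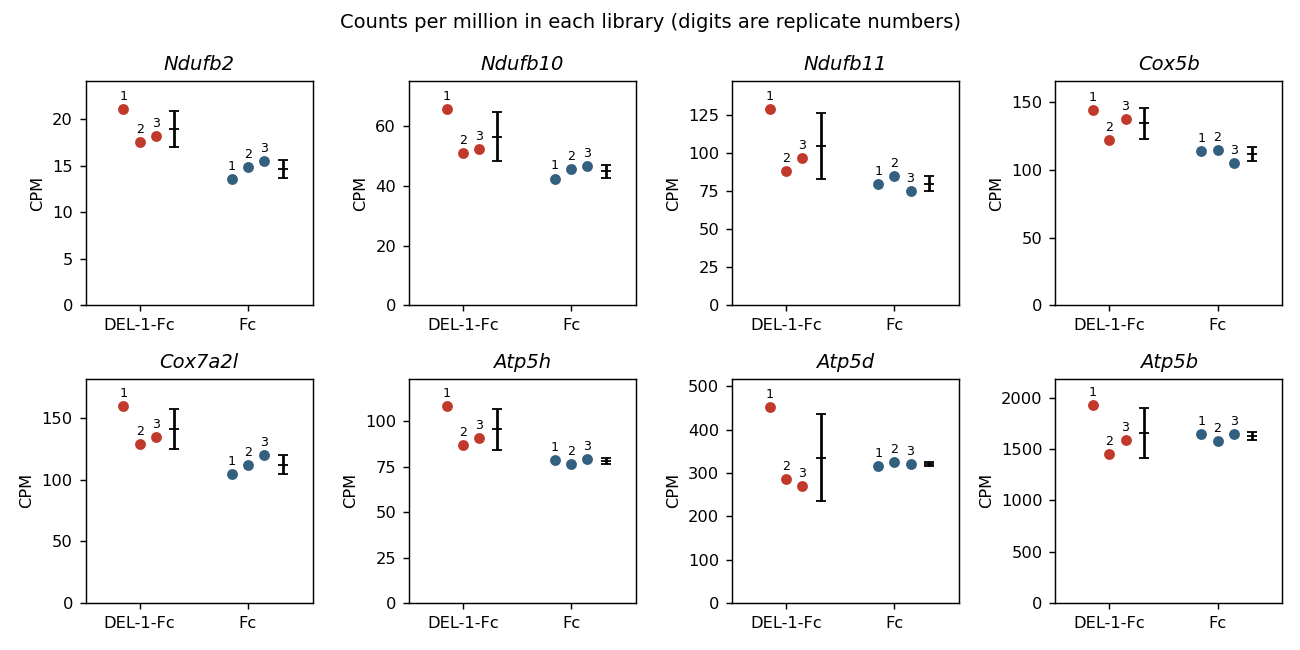
CPM of 8 members in each library, with DEL-1-Fc libraries on the left and Fc libraries on the right of each panel; digits are replicate numbers and black marks are the mean with its SD (n = 3). Ndufb2, Ndufb10, Ndufb11, Cox5b, Cox7a2l and Atp5h have every DEL-1-Fc library above every Fc library, Atp5d has DEL-1-Fc replicate 1 far above and the other 2 below the Fc libraries, and the groups of Atp5b overlap.

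No member of complex V was called, beside 6.4% higher and 6.22% lower of all genes tested. All 17 had a log2 fold change above 0, beside 51.4% of all genes. Atp5h, subunit d of the stalk, came nearest, with 109, 87.1 and 91.1 CPM in DEL-1-Fc libraries and 78.6, 76.3 and 79.3 CPM in Fc libraries. The groups did not overlap (0.29, SE 0.0852, adjusted p = 0.0573). The gene was called when DEL-1-Fc replicate 1 was left out (0.19, adjusted p = 0.0155). Of its 31-base words 27.8% also occur in other genes. Atp5j had 138, 128 and 134 CPM in DEL-1-Fc libraries and 120, 120 and 120 CPM in Fc libraries (0.15, SE 0.0566, adjusted p = 0.118), also without overlap. The F1 catalytic subunits differed little between the groups. Atp5b had 1925, 1451 and 1592 CPM in DEL-1-Fc libraries and 1648, 1577 and 1648 CPM in Fc libraries (0.03, SE 0.104, adjusted p = 0.899). Atp5a1 had 1279, 1069 and 1175 CPM in DEL-1-Fc libraries and 1099, 1056 and 1158 CPM in Fc libraries (0.09, SE 0.0840, adjusted p = 0.540). The interval of the log2 fold change ran from -0.21 to 0.26 for Atp5b and from -0.10 to 0.28 for Atp5a1. Without DEL-1-Fc replicate 1 the log2 fold change was -0.09 for Atp5b, 0.02 for Atp5a1 and 0.13 for Atp5j.

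Atp5d, the δ subunit of F1 (chromosome 10, 80138632 to 80145818, plus strand), turned with a single library. It had 451, 285 and 270 CPM in DEL-1-Fc libraries and 315, 325 and 322 CPM in Fc libraries, so DEL-1-Fc replicate 1 was the highest of all 6 and the other DEL-1-Fc libraries were the lowest. With all libraries the log2 fold change was 0.06 (SE 0.191, adjusted p = 0.869). Leaving out DEL-1-Fc replicate 1 gave -0.21 (SE 0.0487, adjusted p = 0.0140). Atpif1, the inhibitor of ATP hydrolysis by complex V, is not a member by the symbol rule. It had 55.9, 71.7 and 68.2 CPM in DEL-1-Fc libraries and 78.4, 80.0 and 76.1 CPM in Fc libraries, all lower with DEL-1-Fc (-0.26, SE 0.0909, adjusted p = 0.104).

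Genes around the chain were read from 8 further lists. Of 20 electron carriers and ubiquinone-linked enzymes, 1 rose and 1 fell (5% each, beside 6.4% higher and 6.22% lower of all genes tested), with a median of 0.05. Gpd2, the glycerol 3-phosphate dehydrogenase that feeds electrons to ubiquinone, had 45.8, 47.7 and 50.5 CPM in DEL-1-Fc libraries and 74.3, 70.9 and 65.7 CPM in Fc libraries (log2 fold change -0.55, SE 0.0704, adjusted p = 0.00135). Sqor, which passes electrons from sulfide to ubiquinone, rose at a low level, with 2.04, 2.10 and 1.72 CPM in DEL-1-Fc libraries and 1.20, 1.08 and 1.44 CPM in Fc libraries (0.66, SE 0.173, adjusted p = 0.0389). Neither gene's groups overlapped. Of 40 tested assembly factors outside the symbol rule, 2 rose and 1 fell (5% and 2.5%, each below its share of all genes), with a median of 0.07. Sco1, a copper chaperone of complex IV, had 23.3, 21.5 and 26.2 CPM in DEL-1-Fc libraries and 37.0, 35.8 and 39.0 CPM in Fc libraries (-0.66, SE 0.0850, adjusted p = 0.00142). Coa7 (0.27, SE 0.0750, adjusted p = 0.0453), a complex IV assembly factor, and Uqcc2 (0.25, SE 0.0699, adjusted p = 0.0495), which helps build complex III, rose. The falls of Gpd2 and Sco1 were called in every one of the 19 alternatives. The calls of Sqor, Coa7 and Uqcc2 were each lost when any single Fc replicate or DEL-1-Fc replicate 3 was left out, with adjusted p up to 0.160, 0.193 and 0.208 over the alternatives.

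Upstream of the chain, 2 of 19 genes of the tricarboxylic acid cycle and pyruvate dehydrogenase rose and 1 fell (10.5% and 5.26%, beside 6.4% and 6.22% of all genes), with a median of 0.03. Pcx, which makes oxaloacetate from pyruvate, had 56.4, 48.9 and 46.3 CPM in DEL-1-Fc libraries and 28.8, 35.5 and 34.9 CPM in Fc libraries (log2 fold change 0.61, SE 0.103, adjusted p = 0.00530), and was called in every alternative. Dlat of pyruvate dehydrogenase fell (-0.23, SE 0.0569, adjusted p = 0.0332). Of 22 tested regulators of mitochondrial gene expression, Polg2, the accessory subunit of the mitochondrial DNA polymerase, rose (0.34, SE 0.0860, adjusted p = 0.0319). Myc, a transcription factor that drives growth and mitochondrial biogenesis, fell to 880, 829 and 758 CPM in DEL-1-Fc libraries, against 1023, 1062 and 994.5 CPM in Fc libraries (-0.32, SE 0.0765, adjusted p = 0.0268). These 2 are 4.55% of the list in each direction, and its median was -0.01. Leaving out any single Fc replicate ended the calls of Dlat, Polg2 and Myc, whose adjusted p reached 0.162, 0.155 and 0.131 over the alternatives.

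Other gene groups that make large stable complexes served for comparison. Among 77 mitochondrial ribosomal proteins 1 was called, Mrpl23 (log2 fold change 0.30, SE 0.0658, adjusted p = 0.0180), and the median was 0.06. Among 82 tested cytosolic ribosomal proteins 1 was called (1.22%, beside the same shares of all genes), Rpl14 (0.58, SE 0.130, adjusted p = 0.0211). In this list 65 were above 0 (79.3%, beside 51.4% of all genes) and the median was 0.13. Of these 82, 66 (80.5%) share 20% or more of their 31-base words with other genes, Rpl14 among them (42.7%), beside 18.2% of the respiratory chain members, so the levels of ribosomal proteins are uncertain. Both calls were lost without DEL-1-Fc replicate 3 or any single Fc replicate, with adjusted p up to 0.0974 for Mrpl23 and 0.0929 for Rpl14. Of the 18 tested subunits of the 20S proteasome 0 were called, beside 6.4% higher and 6.22% lower of all genes tested. Their median was -0.01. In DEL-1-Fc replicate 1 the median relative level was 0.33 for cytosolic ribosomal proteins, 0.19 for mitochondrial ones and 0.14 for the proteasome, beside 0.27 for the respiratory chain. Without that library the medians were 0.07, -0.01 and -0.04, beside 0.06 for the respiratory chain.

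**Figure D5:**
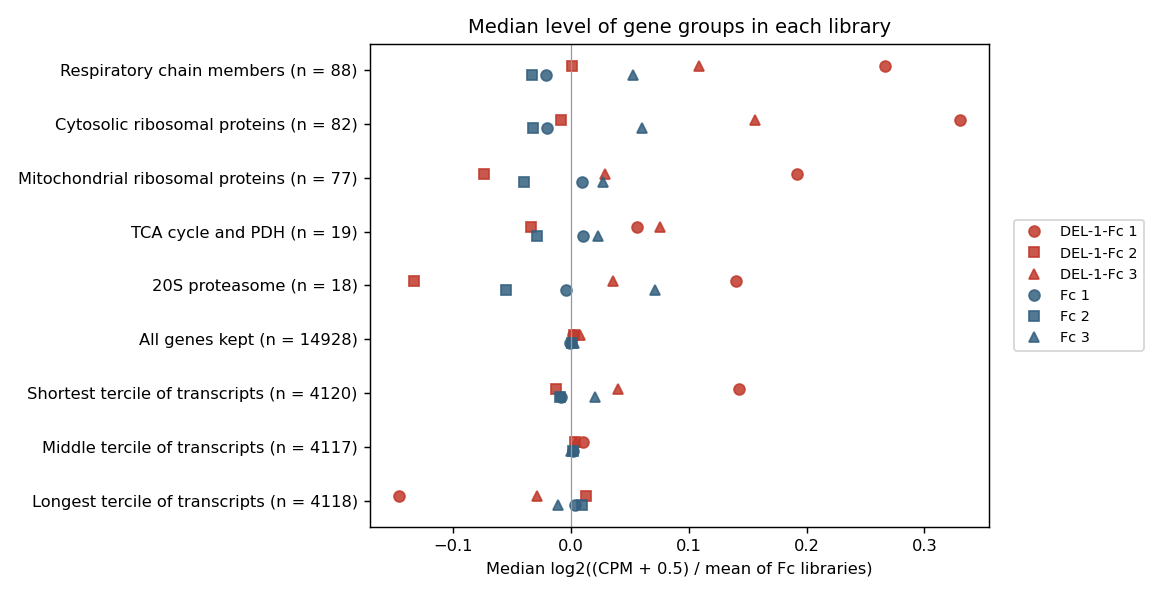
Median relative level (log2 of CPM plus 0.5 against the Fc mean) of sets of genes, with 1 point for each library. The sets are the respiratory chain, 4 other gene groups, all genes tested, and terciles by transcript length. Terciles hold the tested genes that have an annotated principal transcript. In DEL-1-Fc replicate 1 the respiratory chain (0.27), cytosolic ribosomal proteins (0.33) and the tercile of genes with the shortest transcripts (0.14) lie right of the other libraries, and the tercile with the longest lies left of them (-0.15).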

How the data were processed

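PolyA RNA libraries of Tregs, 3 DEL-1-Fc and 3 Fc, were read from the authors' deposited files of raw counts per gene, 1 file per library. STAR (no version) and HTSeq 0.6.0 on GRCm38 (mm10) are named per the submitters' processing notes; not given in the sources used here are the annotation release, the strand setting and the handling of multi-mapping reads. Symbols, biotypes, exons and transcripts came from GENCODE M21, which matched 37693 of 39179 identifiers, and promoters from RefSeq (GRCm38.p6).

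Counts were tested with edgeR 4.0.16 in R 4.3.3: filterByExpr (minimum count 10, minimum total 15) left 14928 genes, library sizes were scaled by TMM, and the robust quasi-likelihood test was adjusted by Benjamini-Hochberg over all genes kept. Each SE was taken as |log2 fold change| over the root of its F statistic. CPM uses TMM-scaled sizes, and RPKM divides it by the median length of the APPRIS principal transcripts. Relative levels use a pseudocount of 0.5 CPM. Shared sequence is the share of 31-base words of the longest transcript found in another gene. Depth was 33364166 to 61967687 counts per library, so 3 counts are 0.0490 to 0.0914 CPM. Replicates of a group differed by more than counting noise (chi-square per degree of freedom 19.9 to 68.1). The scripts were tested on simulated data.

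The members and the lists around them were chosen with earlier results of these data known. Values in each library were given for called members and the smallest p of each complex, for core subunits, and for isoform pairs; from each list, up to 3 called genes. Some genes counted in these groups are not reported here by name. Alternatives were DESeq2 1.42.0, limma-voom (limma 3.58.1), RLE, upper-quartile or no factors, other filters, a replicate block, no robust dispersion, thinning, removal of length and GC trends (mgcv 1.9.3), leaving out genes with 20% or more shared words, and leaving out each library.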

Additional observations from a re-analysis of the deposited data

How the results depend on the processing

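The 3 calls are near the threshold and depend on the processing. The number of members called higher was 7 with DESeq2, 1 with limma-voom, 5 with library sizes alone, 5 with no filter, 5 after removal of length and GC trends, 0 without robust dispersion and 0 with the replicate number as a block. It was 4 with trends removed and the block together, and 2 or 3 in the other alternatives that kept all libraries. Calls over all genes in the alternatives that kept all libraries ran from 1394 to 2627, both directions together. Leaving out 1 library gave 0 to 11 higher and 0 to 1 lower, and 901 to 3003 calls over all genes, against 1884 with all libraries. The median log2 fold change of the members was above 0 in all 19 alternatives, and that of complex V was 0.057 to 0.21 with 1 library left out. Leaving out DEL-1-Fc replicate 1 reversed Atp5d (-0.21, adjusted p = 0.0140), which ran from -0.21 to 0.20 with 1 library left out. The cause was not tested. The labels give no pairing of the samples beyond a shared replicate number. Deviations of same-numbered libraries correlated at 0.016, 0.088 and 0.042, and those of different-numbered libraries at -0.091 to 0.038. Values this small, from 3 libraries a group, cannot settle whether the samples were paired. Under the block, Ndufb2, Cox5b and Cox7a2l had edgeR adjusted p of 0.0840, 0.0722 and 0.0854. Depth limits the rare isoforms, which have at most 3 counts in a library.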
